A study of Mus musculus with 21 samples.

Results

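The 15 aP2-Cre/+;SmoM2/+ tumors of this mouse series were ranked by Adipoq, the gene of the fat hormone adiponectin, and the 5 tumors with the highest level were compared with the 5 with the lowest. These 10 tumors are part of 21 samples measured on bead arrays. Adipoq itself chose the groups, so its values are a description and no test was made on it. All other genes were compared between the groups, and because the groups come from a value of the same arrays, the comparison describes what goes with Adipoq and tests no treatment.

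All samples came from a mixed C57Bl/6 and 129X1/SvJ strain. The mice carried SmoM2, an activated form of the Hedgehog signalling protein Smoothened. In the 15 tumors, SmoM2 was paired with a Cre transgene driven by the promoter of aP2, also called Fabp4, a lipid-binding protein of adipocytes that other cells can also express. The other samples were 3 tumors of Myogenin-Cre/+;SmoM2/+ mice, whose Cre is named for a transcription factor of differentiating muscle, and 3 samples of sternocleidomastoid, a neck muscle, from SmoM2/+ mice with no Cre named. Each tumor carries 1 mouse number, the muscle samples are numbered 1 to 3 without a statement that they are separate animals, and age, sex and treatment are not given in the labels. The p-values measure the spread between these tumors.

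White adipocytes store triglyceride in a large lipid droplet that is coated by perilipins and CIDE proteins, and they secrete hormones such as adiponectin and leptin. Their identity is set by the transcription factors PPARγ, encoded by Pparg, and C/EBPα, encoded by Cebpa. Brown adipocytes burn fat for heat through the mitochondrial protein UCP1. Fat tissue also lies between and around skeletal muscles.

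The promoter windows of Adipoq and of 3 adipocyte genes described below are shown as examples of genes that lay higher in the tumors with more Adipoq. Each window is 300 bases around an annotated start and was taken from RefSeq on GRCm38.p6. Capitals mark a match to the C/EBP motif TTNNGCAA on either strand.
Adipoq, chr16:23146286-23146585, plus strand: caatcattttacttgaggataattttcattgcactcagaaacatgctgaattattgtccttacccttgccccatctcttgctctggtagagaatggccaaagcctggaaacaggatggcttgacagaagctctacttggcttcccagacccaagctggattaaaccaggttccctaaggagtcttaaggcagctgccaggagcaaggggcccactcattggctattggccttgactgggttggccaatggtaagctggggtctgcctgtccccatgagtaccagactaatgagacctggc
Cidec, chr6:113434715-113435014, minus strand: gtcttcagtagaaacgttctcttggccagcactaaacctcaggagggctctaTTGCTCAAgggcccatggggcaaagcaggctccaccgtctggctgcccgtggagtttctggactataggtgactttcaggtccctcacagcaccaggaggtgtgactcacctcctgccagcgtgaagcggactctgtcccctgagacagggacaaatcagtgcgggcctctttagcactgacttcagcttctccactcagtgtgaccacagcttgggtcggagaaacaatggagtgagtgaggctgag
Lep, chr6:29059971-29060270, plus strand: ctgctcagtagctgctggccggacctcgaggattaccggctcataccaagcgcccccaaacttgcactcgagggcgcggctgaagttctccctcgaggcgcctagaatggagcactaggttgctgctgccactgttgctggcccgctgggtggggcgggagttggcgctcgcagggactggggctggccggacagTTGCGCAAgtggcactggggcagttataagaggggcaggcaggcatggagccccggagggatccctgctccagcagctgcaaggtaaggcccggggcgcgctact
Plin1, chr7:79732727-79733026, minus strand: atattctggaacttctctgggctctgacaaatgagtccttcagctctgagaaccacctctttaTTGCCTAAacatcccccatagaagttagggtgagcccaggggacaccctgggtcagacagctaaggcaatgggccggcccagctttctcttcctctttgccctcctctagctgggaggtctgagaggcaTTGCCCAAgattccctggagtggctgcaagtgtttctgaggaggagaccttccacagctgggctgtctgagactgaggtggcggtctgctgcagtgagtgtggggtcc
The Adipoq window held no match to these letters, that of Cidec and that of Lep held 1 each, and that of Plin1 held 2. These windows were picked from a larger search after the matches were seen. That search also included Hp, Orm1, Tmem45b and Bmp3, whose windows are not described here. The windows of Cyp2e1, Plin4 and Adig, the other window of Cidec and 2 of the 3 windows of Pparg, all genes that also lay higher, held no match, and the remaining window of Pparg held 2. Of 32851 windows of this length, 3547 (10.8%) held at least 1 match, and nothing about the adipocyte genes as a group is read from this search.

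Adipoq was above background on all 15 tumor arrays. Levels are log2 intensities, and for the ranking they were quantile normalized over the 21 arrays. In the 5 highest tumors, numbered 128, 140, 68, 164 and 89, Adipoq was at 9.97, 9.86, 9.82, 9.68 and 9.60. In the 5 lowest, numbered 115, 104, 144, 64 and 65, it was at 8.63, 8.43, 8.14, 7.98 and 7.67. The other tumors, 165, 174, 135, 95 and 90, lay between 9.06 and 9.59. The upper border was narrow, since tumor 89 was inside at 9.60 and tumor 165 outside at 9.59, while at the lower border tumor 115 was inside at 8.63 and tumor 90 outside at 9.06.

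**Figure D1:**
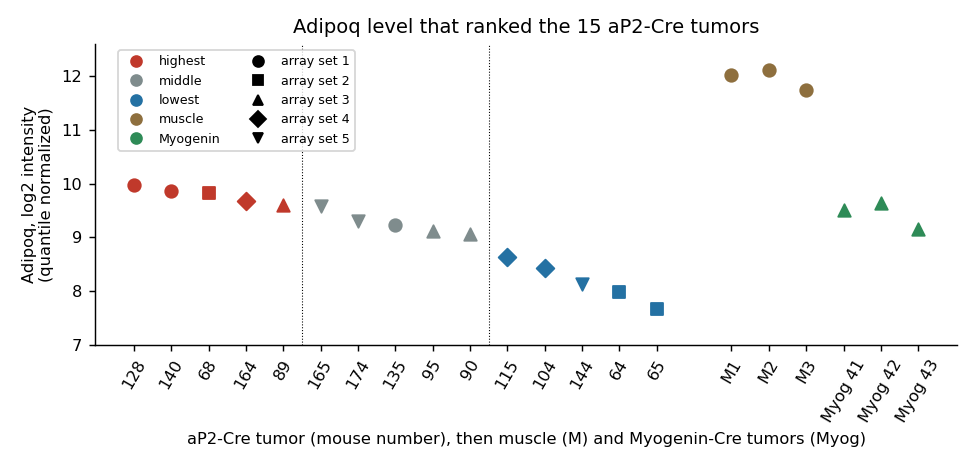
Adipoq level of each sample (y axis, quantile normalized log2 intensity) for the 15 aP2-Cre tumors in order of rank, followed by the 3 muscle samples and the 3 Myogenin-Cre tumors (x axis). Colours give the group and symbols the array set; tumors fall from 9.97 to 7.67, and the 3 muscle samples lie above every tumor.

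All values from here on were background-corrected before normalization (neqc), which spreads low levels further apart. On that scale Adipoq was 9.58 ± 0.17 in the highest group, 8.95 ± 0.25 in the middle and 7.36 ± 0.66 in the lowest (SD, n = 5 each). Muscle was at 11.92 ± 0.20 and the Myogenin-Cre tumors at 9.16 ± 0.30 (SD, n = 3 each). The same 5 and 5 tumors were chosen from these values and from the authors' own normalized values. The arrays were normalized by the authors in 5 sets, each with 3 aP2-Cre tumors. Sets 2 and 4 hold tumors of both groups, set 1 holds 2 highest tumors and set 3 holds 1, and set 5 holds 1 lowest.

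Some tumors stand apart in other ways. Dcpp1, a gene of the salivary gland, was above 12 in 6 tumors: 128, 68, 164 and 89 of the highest group, 90 of the middle and 104 of the lowest. Tumor 64 of the lowest group, at 9.01, is not among these 6. Tumor 115 of the lowest group had the lowest level of Ckm, the muscle creatine kinase, at 8.02, while the other 14 tumors lay between 10.38 and 13.94. On each tumor array, 35.7% to 39.8% of 45281 probes were detected.

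The fat label was checked against 27 adipocyte genes, of which 20 besides Adipoq were measured. Fabp4, Cd36 and Retn, which encode a lipid-binding protein, a fatty acid carrier and the hormone resistin, have 1 probe each that was detected on 0 of 21 arrays, and Trarg1 likewise. Cfd and Acsl1 have no named probe. Plin1 and Aqp7, a perilipin and a glycerol channel of adipocytes, were detected on 2 of the 15 tumor arrays, both in the highest group, and on none in the lowest. On the 3 muscle arrays Plin1 was at 7.41 ± 0.11 and Pparg at 9.84 ± 0.096 (SD), against tumor levels of 4.33 to 5.35 and 6.12 to 7.41.

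Across 11033 genes, no gene passed limma's test between the groups at an adjusted p of 0.05 (0% higher and 0% lower), and the smallest adjusted p was 0.0971, for Cidec. At an unadjusted p under 0.05 there were 370 genes higher (3.35%) and 517 lower (4.69%) in the tumors with more Adipoq. With arrays centred on their median instead, the split was 461 higher and 130 lower, and the median difference of all genes was 0.11 against -0.01. The 5 and 5 tumors did not overlap for 59 genes higher (0.535%) and 77 lower (0.698%). When Adipoq was used as a level over all 15 tumors, 3 genes passed limma's test with a rising slope (0.0272%) and 0 with a falling one, against 151 (1.37%) and 330 (2.99%) at an unadjusted p under 0.05. The 3 genes were Cidec, Cyp2e1 and Tmem45b.

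The adipocyte genes lay higher in the tumors with more Adipoq. All 20 measured genes of the list had a difference above 0, with a median of 0.71 on the log2 scale. Of these, 13 had an unadjusted p under 0.05, against 3.35% of all genes, while 0 were lower. In 7 of the 20 the groups did not overlap, against 0.535% of all genes. These were Cidec, Plin4, Lep, Adig, Dgat2, Pnpla2 and Plin1, the last of them close to background. None was called with adjustment over all genes. In bulk samples, fewer fat cells and less RNA per cell cannot be told apart. Muscle and cell cycle genes also differed between the groups, as given below, and the list's median was 0.36 with the mature muscle level as a covariate and 0.45 with the cell cycle level, where 16 of the 20 were above 0. The count with an unadjusted p under 0.05 was 7 and 6 in those fits, 6 with the array set as a covariate and 11 without tumor 115. Without the 6 tumors with Dcpp1 above 12, which leaves 1 highest tumor, the list's median was 0.75.

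**Figure D2:**
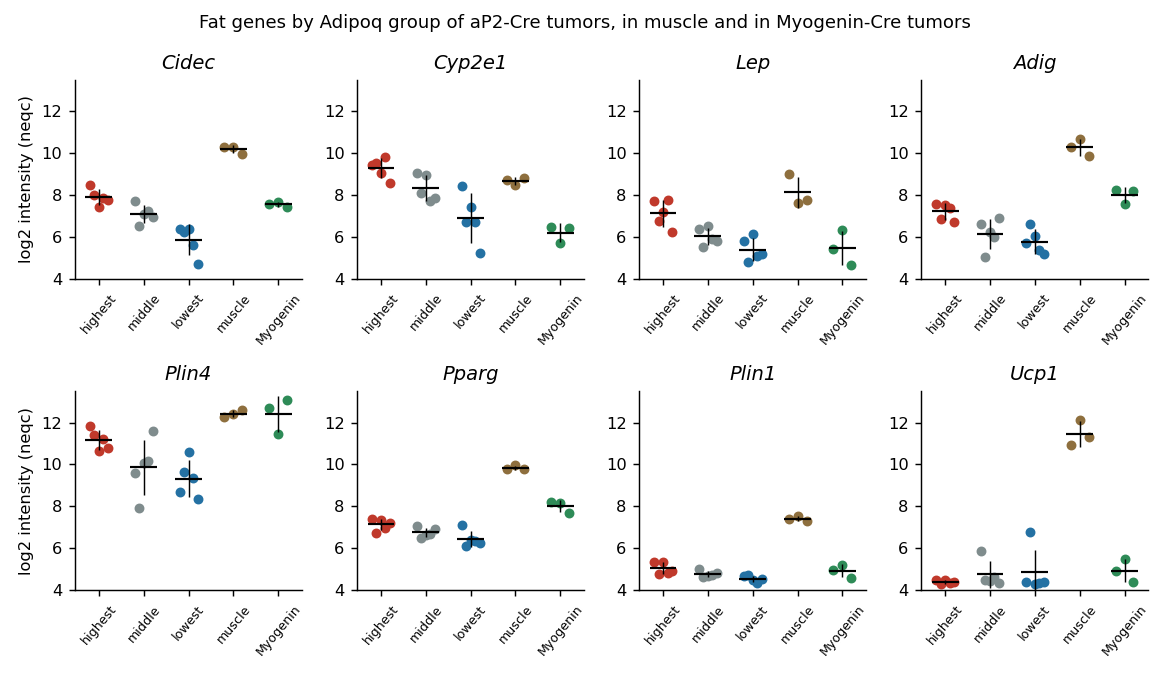
Levels of 8 fat genes (y axis, neqc log2 intensity) in the tumors with the highest, middle and lowest Adipoq, in muscle and in Myogenin-Cre tumors (x axis). Points are samples, the horizontal line is the mean and the vertical line the SD; Cidec separates the highest from the lowest tumors, while Ucp1 is high in the 3 muscle samples and near the floor in most tumors.

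Cidec, a protein of the lipid droplet surface that promotes large droplets, had the smallest p of all genes in both fits. In the 5 highest tumors, in the order above, it was at 8.50, 8.0, 7.44, 7.85 and 7.76, and in the 5 lowest at 6.38, 6.25, 6.40, 5.62 and 4.71. Every highest tumor was above every lowest tumor, and tumor 65, with the least Adipoq, had the least Cidec. The difference was 2.04 ± 0.31 (log2, SE), or 4.11-fold (limma adjusted p = 0.0971). Over the 15 tumors Cidec gained 0.91 ± 0.09 (SE) per log2 unit of Adipoq (limma adjusted p = 0.000125), and this passed with each of the 15 tumors left out in turn. With the array set as a covariate the slope was 0.81 (limma adjusted p = 0.047).

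Cyp2e1, a cytochrome P450 enzyme of liver that adipose tissue also expresses, had the widest difference among the genes without overlap. It was at 9.41, 9.52, 9.07, 9.81 and 8.59 in the highest tumors and at 8.45, 6.73, 7.44, 6.71 and 5.21 in the lowest. The closest values were tumor 89 at 8.59 and tumor 115 at 8.45. The difference of 2.37 ± 0.46 (log2, SE), or 5.17-fold, was not called between the groups (limma adjusted p = 0.267), and the slope of 1.11 ± 0.12 was (limma adjusted p = 0.000572). The slope passed with each tumor left out, and with the array set as a covariate (limma adjusted p = 0.047). In muscle Cyp2e1 was at 8.68 ± 0.18 and in Myogenin-Cre tumors at 6.2 ± 0.45 (SD, n = 3 each).

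Tmem45b, a transmembrane protein, was at 8.30, 7.12, 8.33, 8.11 and 6.88 in the highest tumors and at 7.02, 6.28, 5.53, 5.45 and 4.74 in the lowest. The groups overlapped, because tumor 115 of the lowest group lay above tumor 89 of the highest. Its slope was 0.95 (limma adjusted p = 0.00273), which was lost without tumor 65 (limma adjusted p = 0.0975) and with the array set as a covariate (limma adjusted p = 0.127).

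Without tumor 115 the comparison of groups called 3 genes, Cidec, Cyp2e1 and Hp, each with a limma adjusted p of 0.0407. Hp encodes haptoglobin, a haemoglobin-binding plasma protein that adipocytes also make. It was at 9.67, 9.07, 9.72, 10.34 and 10.62 in the highest tumors and at 9.15, 6.96, 8.31, 6.85 and 6.58 in the lowest, so tumor 115 overlapped with the highest group. The difference with all tumors was 2.31 ± 0.47 (log2, SE; limma adjusted p = 0.336). Orm1, another acute-phase plasma protein made by liver and fat, was 1.02 higher without overlap, and was detected on 5 highest and 1 lowest array.

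Of the fat hormones, Lep, which encodes the satiety hormone leptin, was at 7.70, 6.76, 7.19, 7.75 and 6.24 in the highest tumors and at 5.79, 4.79, 6.14, 5.07 and 5.17 in the lowest. The nearest tumors, 89 and 144, were 6.24 and 6.14. Lep was detected on all 5 highest arrays and on 2 of the lowest, and differed by 1.74 ± 0.32 (log2, SE; limma adjusted p = 0.267). With 4 tumors against 4 it was called (limma adjusted p = 0.0209).

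Among the lipid droplet genes, Plin4, a perilipin of fat and muscle, differed by 1.84 ± 0.53 (log2, SE) and Adig, also called adipogenin, by 1.44 ± 0.34, with limma adjusted p of 0.501 and 0.412. Plin4 ranged from 10.63 to 11.82 in the highest tumors and from 8.36 to 10.58 in the lowest, so tumor 68 and tumor 144 lay almost together. Adig ranged from 6.72 to 7.59 and from 5.16 to 6.61. Plin1, the main perilipin of white fat, ranged from 4.78 to 5.35 and from 4.33 to 4.70, close to background throughout.

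Enzymes of triglyceride turnover had smaller differences. Dgat2, which makes triglyceride, was 1.02 ± 0.39 higher (log2, SE), Lpl, which frees fatty acids from lipoproteins, 0.80 ± 0.28, and Pnpla2, which begins triglyceride breakdown, 0.74 ± 0.23. Slc2a4, the insulin-responsive glucose transporter of fat and muscle, was 0.91 higher and Lipe, hormone-sensitive lipase, 0.39. Limma's adjusted p of these 5 genes lay between 0.555 and 0.615. Mgll and Car3, a monoglyceride lipase and an abundant carbonic anhydrase of fat and muscle, differed by 0.02 and 0.07. The 2 transcription factors of the list were Pparg, 0.70 ± 0.19 higher (limma adjusted p = 0.461), and Cebpa, 0.20 ± 0.17 higher. Mrap, an accessory protein of the melanocortin receptor, was 0.60 higher and detected on 3 highest arrays and 1 lowest.

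Within the array sets, the tumor with the most Adipoq was set against the one with the least, 1 tumor against 1 in each set, with no test. Of the 20 adipocyte genes, 5 (Cidec, Lep, Pparg, Plin1 and Aqp7) were higher in all 5 sets, against 1.83% of all genes. Plin1 and Aqp7 were detected on only 2 of the 15 tumor arrays, so most of their pairs set background values against each other and carry no order. In sets 1, 2, 4 and 5 the medians were 0.79, 0.82, 0.67 and 0.45. In set 3, where tumors 89 and 90 differ by only 0.66 in Adipoq, the median was -0.13 and 8 of the 20 were higher. Tumor 90 also had a higher mature muscle level than tumor 89, at 18.61 against 18.24.

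**Figure D3:**
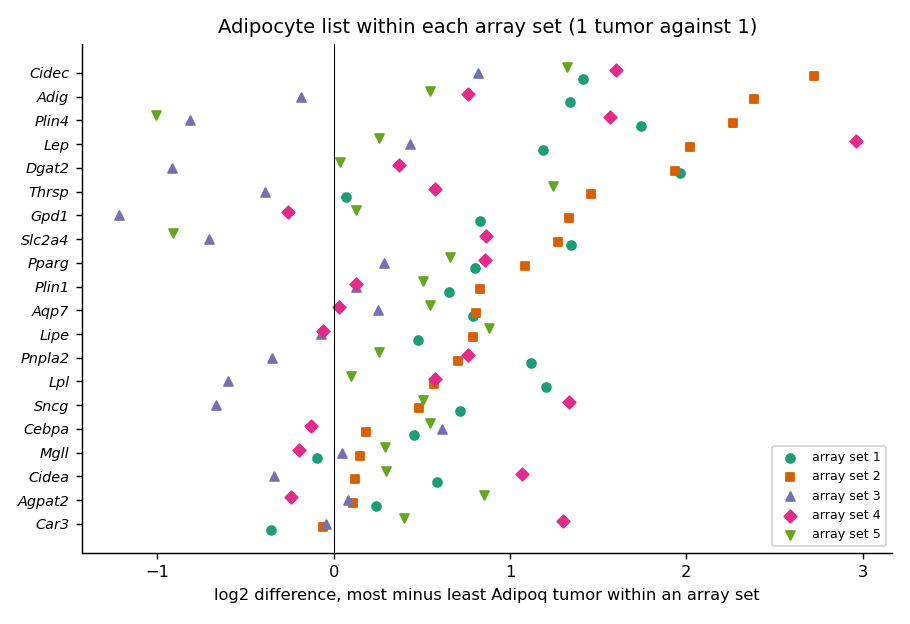
Difference of each of the 20 adipocyte genes (y axis) between the tumor with the most and the one with the least Adipoq in each of the 5 array sets (x axis, log2). Each point is 1 tumor against 1, and the genes are ordered by their difference in set 2. Set 3 lies below 0 for 12 genes.

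Genes of lipid synthesis outside the adipocyte list moved little. Of 15 measured, 11 were above 0 with a median of 0.15, and 1, Lpin1, a phosphatidate phosphatase, had an unadjusted p under 0.05 (0.91 higher, limma adjusted p = 0.589). That count was 0 without tumor 115 and with the array set as a covariate. Scd1, a desaturase, differed by 0.35 ± 0.46 (log2, SE). Fasn, the fatty acid synthase, was detected on 2 of 21 arrays and was not tested.

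Brown fat genes were mostly above 0. Of 17 measured, 13 were above 0 with a median of 0.23 and 3 had an unadjusted p under 0.05, against 3.35% of all genes. These were Cidea, a lipid droplet protein (0.60), Ppargc1a, a mitochondrial gene coactivator (1.15), and Cpt1b, a carnitine transferase of muscle and brown fat (1.00). Cidea is also counted in the adipocyte list and Cpt1b in that of fatty acid oxidation. With the mature muscle level as a covariate the median was -0.06 and none of the 17 had an unadjusted p under 0.05. Without tumor 115 the median was 0.057, with 11 above 0, and 0 had an unadjusted p under 0.05, as was also so with the array set as a covariate. Ucp1, the defining gene, was detected on 2 of 15 tumor arrays, in tumor 104 at 6.78 and in tumor 165 at 5.89. In the other 13 tumors it lay between 4.28 and 4.64, at background, and none of the 5 highest-Adipoq tumors had a detected level. In the 3 muscle samples Ucp1 was at 10.93, 12.13 and 11.29.

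Genes of muscle fibres and of fatty acid oxidation were mostly above 0 as well. Of 31 mature muscle genes, 30 were above 0 with a median of 0.40. An unadjusted p under 0.05 was found for 5, against 3.35% of all genes. Among them were Ldb3, a Z-disc protein (0.72), and Fbxo32, a ubiquitin ligase of wasting muscle (0.81, without overlap). Of 19 genes of fatty acid oxidation, 17 were above 0 with a median of 0.41. Against the same 3.35%, 5 had an unadjusted p under 0.05, among them Eci1, an enoyl-CoA isomerase (0.59). Without tumor 115 these counts were 1 of 31 and 0 of 19, and with the array set as a covariate both were 0. None was called with adjustment over all genes.

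Ckm was at 13.33, 12.05, 13.61, 12.13 and 12.71 in the highest tumors and at 8.02, 12.43, 12.31, 12.51 and 10.65 in the lowest. The groups overlapped, and the low values came from tumors 115 and 65. Mylk2, the myosin light chain kinase of skeletal muscle, and Ppp1r1a, a phosphatase inhibitor of muscle and brain, were 1.34 and 1.21 higher without overlap (limma adjusted p = 0.572 for both). Without tumor 115, which was at 7.51 for Mylk2 and 6.81 for Ppp1r1a, the differences were 0.82 and 0.98.

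Genes of cell division lay lower in the tumors with more Adipoq. All 22 measured genes were below 0, with a median of -0.86, and 16 had an unadjusted p under 0.05, against 4.69% of all genes. None was called. The difference was -1.50 ± 0.41 (log2, SE) for Top2a, the DNA topoisomerase of dividing cells (limma adjusted p = 0.467), -1.0 ± 0.27 for Birc5, or survivin, and -0.88 ± 0.27 for Mcm5, a subunit of the replicative helicase. Top2a was at 6.13, 5.73, 6.46, 5.14 and 7.63 in the highest tumors and at 8.03, 8.05, 7.89, 7.40 and 7.21 in the lowest. The groups overlapped through tumor 89. The groups did not overlap for 2 of the 22, against 0.698% of all genes. These were Mcm4, another helicase subunit, and Tpx2, a spindle assembly factor, which are named after their values were seen. With the mature muscle level as a covariate 10 of the 22 had an unadjusted p under 0.05. Without the 6 tumors with Dcpp1 above 12, which leaves 1 highest tumor, 21 of the 22 were below 0 with a median of -0.86.

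Histone genes, which dividing cells express in S phase, were chosen as a family after their values were seen. Of 38, 32 were below 0 with a median of -0.35 and 15 had an unadjusted p under 0.05, against 4.69% of all genes. H2ac15 was 1.52 lower without overlap, at 8.83 to 10.31 in the highest tumors and 10.47 to 12.36 in the lowest. In set 3 the cell cycle genes had the other sign, with 19 of 22 higher in tumor 89 than in tumor 90 and a median of 0.30.

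Rhox5, a homeobox gene of the X chromosome best known from testis, had the widest difference in the lower direction among the genes without overlap. It was at 7.33, 7.25, 6.42, 7.76 and 6.46 in the highest tumors and at 9.07, 8.04, 7.89, 9.19 and 9.39 in the lowest. The groups did not overlap, and the difference was -1.67 ± 0.43 (log2, SE; limma adjusted p = 0.426). Bmp3, a secreted BMP family member, was 7.09 to 7.91 in the highest tumors and 8.07 to 9.03 in the lowest, a difference of -0.94 ± 0.18 (limma adjusted p = 0.267). Both genes were lower in the tumor with more Adipoq in 5 of 5 array sets, as were 4.21% of all genes.

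Hedgehog targets and muscle regulators differed little. Of 15 Hedgehog response genes, 9 were below 0 and the median was -0.06. An unadjusted p under 0.05 was found for 3, against 4.69% of all genes. These were Ptch1, the Hedgehog receptor and a target (-0.45), Foxf1, a transcription factor target (-0.50, without overlap), and Bcl2, a survival factor (-0.28). With arrays centred on their median the list's median was 0.05, and 0 of the 15 had an unadjusted p under 0.05 there, in the authors' values or with the mature muscle level as a covariate. The count was 2 lower with the array set as a covariate, 2 without tumor 115 and 2 with the cell cycle level as a covariate. Within the array sets, 1 tumor against 1, 3 of the 15 were lower in 5 of 5 sets, Ptch1 and Bcl2 among them, against 4.21% of all genes. Myog and Myod1, transcription factors of muscle differentiation, differed by -0.16 ± 0.24 and 0.01 ± 0.27 (log2, SE). Igf2, a growth factor, lay between 14.90 and 15.13 in all 15 tumors.

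Matrix genes were mostly below 0. Of 23, 22 were below 0 with a median of -0.20, and 3 had an unadjusted p under 0.05, against 4.69% of all genes. These were Fn1, or fibronectin (-1.38), Lum, a small leucine-rich proteoglycan (-0.88), and Col5a1, a fibrillar collagen chain (-0.43). In the authors' values 13 of 23 were below 0.

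**Figure D4:**
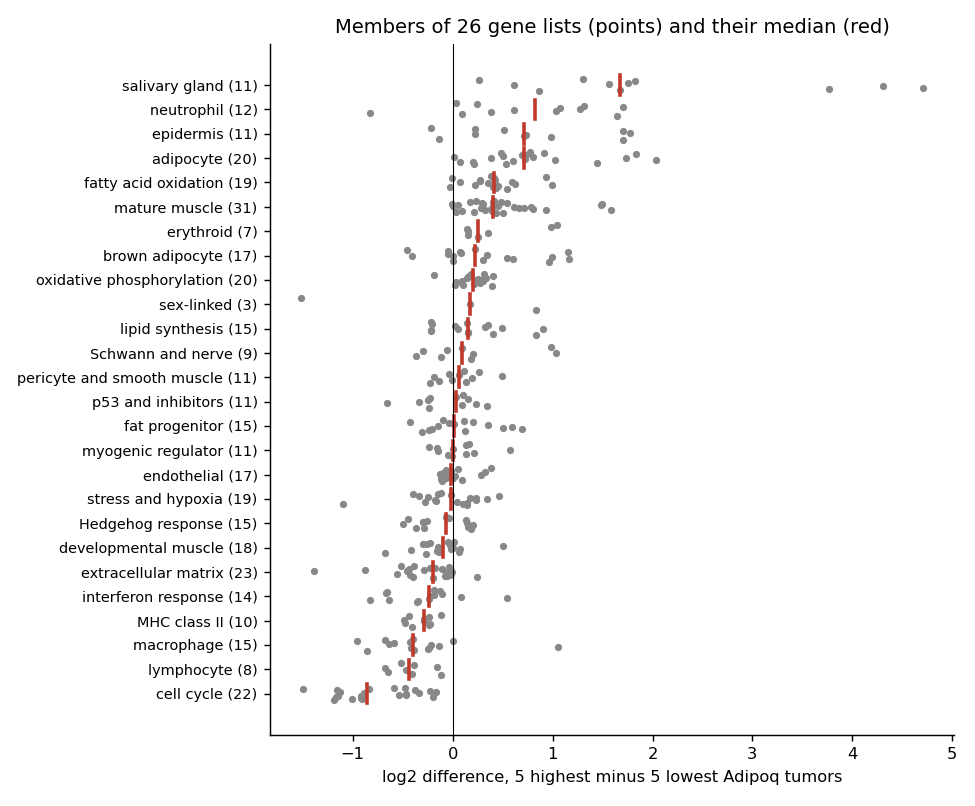
Differences between the 5 highest and 5 lowest Adipoq tumors (x axis, log2) for the measured members of 26 gene lists (y axis, number measured in brackets). Points are genes and red bars medians; the adipocyte median lies at 0.71, the cell cycle median at -0.86 and the salivary gland median at 1.68.

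The widest differences of all were in genes of other tissues. Of 11 salivary gland genes, all were above 0 with a median of 1.68, and 1, Aqp5, a water channel, had an unadjusted p under 0.05. Dcpp1 was at 14.21, 5.45, 13.26, 12.81 and 12.96 in the highest tumors and at 5.66, 14.83, 5.68, 9.01 and 4.66 in the lowest. Tumor 140 was low in the first group and tumor 104 was the highest of all in the second. The summed salivary level ran from 10.14 to 16.87 in the highest group and from 8.80 to 16.20 in the lowest. Lor, a protein of the cornified skin layer, was at 13.39, 6.24, 13.14, 7.23 and 9.76 and at 7.26, 12.20, 7.02, 7.59 and 7.19. Without the 6 tumors, which leaves 1 highest tumor, the salivary median was -0.40 and the adipocyte median 0.75. Dcpp1, which chose the 6, is in the salivary list, so the lower salivary median follows from the choice. Fits with the salivary and epidermal levels as covariates were among the alternatives run, over which the adipocyte median ranged from 0.36 to 0.85. Whether salivary or skin tissue caused the other results was not tested.

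**Figure D5:**
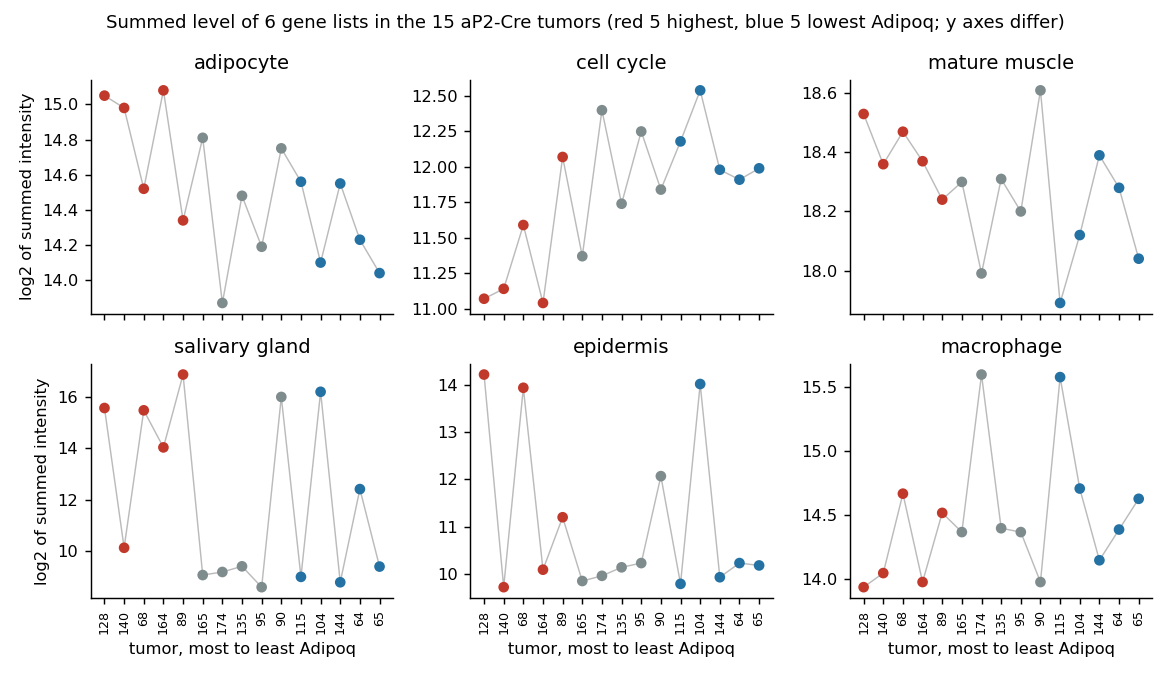
Summed level of 6 gene lists (y axis, log2 of summed intensity, with its own range in each panel) in the 15 aP2-Cre tumors from most to least Adipoq (x axis). Points are tumors coloured by group; the salivary level is above 14 in 6 tumors, 4 of them in the highest group, and the cell cycle level is lowest in tumor 164.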

How the data were processed

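RNA of 21 samples was measured on mouse bead arrays. A deposited table gives, for every probe of an array, a raw linear intensity and a detection p-value. A second deposited table holds intensity values that the authors had quantile normalized in 5 sets of arrays, as shared value distributions show. The submitters' processing notes name BeadStudio but no version. Further steps, and the genome build, are not given in the sources. Promoter windows come from RefSeq on GRCm38.p6.

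Intensities were quantile normalized over 21 arrays to rank the tumors. For the comparisons, the raw intensities were separately background-corrected and normalized with neqc (offset 16, limma 3.58.1, R 4.3.3). Probes with a detection p under 0.01 on at least 3 arrays were kept, 19655 of 45281, and 1 probe a gene (the brightest), which left 11033 genes besides Adipoq. Of all probes, 34885 carry 1 gene symbol, 18 several and 10378 none, and the latter were not named. Limma (eBayes with trend, two-sided) was fitted to 15 tumors in 3 groups of 5, and p-values were adjusted by Benjamini-Hochberg across all of them (threshold 0.05). The summed level of a list is the log2 of the sum of its linear intensities. The number of arrays limits the precision.

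The members and the 26 lists were chosen with earlier results of these data known. Most genes named were taken from a pool set by rule. It held the 12 widest differences without overlap in each direction, filled up with uncalled genes, and up to 4 genes per list and direction. It also held all measured fat genes, the 6 smallest p of the slope, and fixed anchor genes. The text gives only a part of this pool and leaves out, among others, Vmn1r65, Espl1, Whrn, Cd209f, Gpd1 and Thrsp. Of the anchor genes, Fabp4 was not detected. Alternatives changed the values, the probe filter, the probes, the arrays, the weights, the array set, the members and each tumor. Added after seeing the data were covariates for salivary, epidermal, muscle, cell cycle and Xist levels, the 2 sets that hold both groups, and the tumors without Dcpp1 above 12. The fit was tested on simulated data.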

Additional observations from a re-analysis of the deposited data

Results flagged for a closer look

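In 108 groups of 5 tumors (list levels and a part of the named genes), the gap of an end tumor to its neighbour was set against the group's range. This screen flags about 1 in 20 groups by chance. It found 8. It did not cover all named genes. Ucp1 and Lor, for which tumor 104 stood above the other lowest tumors at 6.78 and 12.20, are not among the 8. In the lowest-Adipoq group, tumor 115 stood below the others for Mylk2 at 7.51 (next 9.85) and Ppp1r1a at 6.81 (next 7.87), both of muscle. It also stood below them for the summed sex-linked genes, Xist, Eif2s3y and Kdm5d, at 8.81 (next 11.17). In tumor 115 Xist was at 4.70 and Eif2s3y, a gene of the Y chromosome, at 8.55. In the other lowest tumors Xist was at 11.14 to 11.71 and Eif2s3y at 4.38 to 4.50. Tumor 104 stood above the others for Cenpn, a centromere protein, at 7.33 (next 6.42), and for the summed epidermis genes at 14.02 (next 10.23), and below them for the summed myogenic regulators at 13.70 (next 14.04). In the highest group, tumor 128 stood above the others for the summed fatty acid oxidation genes at 15.41 (next 14.91), and tumor 89 below them for the summed interferon response genes at 11.97 (next 12.29).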

How the results depend on the processing

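The count of genes higher in the tumors with more Adipoq was 0, and it was 1 with quantile normalization alone, 1 with median centering and 1 with array weights (Cidec in each), 3 in the authors' values (Cidec, Cyp2e1 and Hp), 4 with 4 tumors against 4 (Cyp2e1, Lep, Slc7a10 and Tmem45b) and 3 with the slope. Leaving out each tumor gave 0 to 3, with 3 without tumor 115. The count of genes lower was 0 under all of these and the remaining alternatives. The adipocyte median of 0.71 was 0.37 with quantile normalization alone, 0.40 in the authors' values, 0.37 with 7 against 7, 0.36 with the mature muscle covariate and 0.45 with the cell cycle covariate, and 0.61 to 0.75 with each tumor left out. The cause of these shifts was not tested. With the array set as a covariate it was 0.55, and 0.71 over the 2 sets that hold both groups. Leaving out each tumor moved the difference of Ucp1, -0.46 in all, between -0.59 and 0.026, the last without tumor 104. None of the other 32 genes recomputed changed sign under the alternatives run. Most of them were chosen because their groups did not overlap. For those, leaving out a tumor or comparing 4 against 4 could not reverse the sign. No paired analysis was possible because the groups compared share no mouse numbers. Detection limits Plin1, Aqp7 and Ucp1, which lie at background in most tumors, and it limits other listed genes too. Among these, Slc27a2 and Ppara of the brown fat genes and Pck1 of lipid synthesis were detected on 0 aP2-Cre tumor arrays. Kng2, Mef2d and Hadh were detected on 1 each, and Klf15 and Foxc2 on 2 each. They passed the probe filter through other arrays. The list counts above and below 0 include them, although most of their tumor values are at background.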

Other observations

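Other cell types gave values that followed single tumors. Of 12 neutrophil genes, 11 were above 0 in the tumors with more Adipoq, with a median of 0.83. Without the 6 tumors with Dcpp1 above 12, which leaves 1 highest tumor, 1 gene was above 0 and the median was -0.39. All 10 MHC class II genes and all 8 lymphocyte genes were below 0, with 0 at an unadjusted p under 0.05 in limma. Their summed levels were highest in tumor 115, at 15.91 and 11.34. Without tumor 115 the direction was lost: 7 of the 10 MHC class II genes (median 0.080) and 4 of the 8 lymphocyte genes (median 0.032) were above 0. With the array set as a covariate, 9 of 10 and 7 of 8 were above 0. Of 15 macrophage genes, 13 were below 0 with a median of -0.39, which was -0.22 without tumor 115, and with the mature muscle level as a covariate 10 were above 0.

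Xist, which marks cells with an inactive X chromosome, was detected in 3 of the 5 highest and 4 of the 5 lowest tumors. Car9, a carbonic anhydrase induced by low oxygen, was not detected on any highest array and was detected on 3 of the lowest, where it was at least 1.39-fold higher (limma adjusted p = 0.563). Cdkn2a, a cell cycle inhibitor, was detected on 3 arrays of each group. It was at 5.02, 5.37, 6.80, 5.21 and 4.89 in the highest tumors and at 7.42, 4.51, 4.98, 6.54 and 7.12 in the lowest.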
